A study of Canis lupus familiaris with 15 samples.

Results

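The genes described here are 10 genes grouped as negative-feedback regulators of the ERK pathway. They are the dual-specificity phosphatase genes DUSP1, DUSP4, DUSP5, DUSP6 and DUSP10, the Sprouty genes SPRY1, SPRY2 and SPRY4, and the Sprouty-related genes SPRED1 and SPRED2. Rows were matched by exact gene symbol in the 3 deposited tables of differentially expressed genes, and 9 of the 10 members had a row in at least 1 table, out of 7699 symbols listed in all. DUSP10, classed below with the JNK and p38 phosphatases, had a row in none. A further 10 symbols of the same families were listed as well: DUSP2, DUSP3, DUSP7, DUSP8, DUSP9, DUSP12, DUSP16, DUSP18, DUSP22 and DUSP26.

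RNA was sequenced from 15 libraries of canine osteosarcoma cell lines, 3 in each of 5 groups: the D17 extravasation-positive subline, D17 parental cells, the HMPOS extravasation-positive subline, HMPOS parental cells and POS parental cells. HMPOS descends from POS and was obtained as its more metastatic derivative, whereas D17 is a separate metastatic line. Fluorescently marked D17 or HMPOS cells were injected into the bloodstream of zebrafish embryos of the Tg(fli1a:EGFP) strain, clusters that had left the vessels were dissected out, and the recovered cells were expanded in culture before RNA was taken. The parental groups were cultured without passage through a fish, so infusion, extravasation, dissociation and outgrowth from few cells all separate a subline from its parental line and cannot be told apart. The article describes the isolated clusters as biological replicates, while the labels do not tie a library to an embryo or a cluster.

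ERK is the last kinase of a cascade in which growth factor receptors activate RAS, then RAF, then MEK. ERK switches on genes that in turn restrain the cascade. Dual-specificity phosphatases remove the activating phosphates from ERK and its relatives JNK and p38, while Sprouty and SPRED proteins act upstream, between the receptor and RAF. Because several of these genes depend on ERK activity for their transcription, their RNA is widely used as a readout of pathway output, and bone cells use fibroblast growth factor signals that run through the same cascade.

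Each table gave 1 FPKM value per group (fragments scaled by transcript length and by library size), made by the authors from the 3 libraries of that group. The spread between libraries and the depth were therefore unknown, no SD or test could be given, and the values below are descriptions of pooled groups. Every row in the tables was marked significant by the authors, so a gene without a row has no value here, which does not show that it was unchanged. In bulk RNA, fewer cells of a type and less RNA per cell cannot be told apart. A log2 ratio was computed from both group values as extravasation-positive over parental, or as parental HMPOS over parental POS. The tables name the sublines meta and the parental groups norm; the sample labels do not use these names. This reading rests on the names, and on POS having a norm column without a subline. It is in doubt, because the article describes the directions within D17 and HMPOS as the reverse reading would give them. A ratio taken in the article as norm over meta would give the same mismatch with the groups as read here, and which holds is unknown. With the reverse reading each direction within D17 and within HMPOS given below would be exchanged. The HMPOS group compared with POS carries the same norm name. With the reverse reading that comparison would therefore set extravasation-positive HMPOS cells, not parental ones, against POS. The reverse reading would also make the POS norm column a subline. POS has parental samples alone, so the reverse reading could not hold for POS. A fold above 2 was used as the threshold.

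The members that were listed lie on 9 different chromosomes, in CanFam3.1 coordinates. DUSP1 (ENSCAFG00000029826) is on chromosome 4 from 39588339 to 39592891, DUSP4 (ENSCAFG00000030240) on chromosome 16 from 34791855 to 34817289, DUSP5 (ENSCAFG00000030565) on chromosome 28 from 21829653 to 21845650 and DUSP6 (ENSCAFG00000006100) on chromosome 15 from 30322404 to 30326508. SPRY1 (ENSCAFG00000003979) is on chromosome 19 from 16970914 to 16972089, SPRY2 (ENSCAFG00000005260) on chromosome 22 from 33366931 to 33367878 and SPRY4 (ENSCAFG00000006250) on chromosome 2 from 37203612 to 37204571. SPRED1 (ENSCAFG00000008643) is on chromosome 30 from 5594473 to 5710814, and SPRED2 (ENSCAFG00000003219) on chromosome 10 from 64764500 to 64815953. The spans of the 3 Sprouty models, 1176, 948 and 960 bases, are whole multiples of 3, as a coding sequence without untranslated regions has. FPKM divides by the length of such a model, so a level compared between genes depends on how much of each transcript the annotation holds. No other listed row overlapped the locus of any listed DUSP, SPRY or SPRED gene.

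In D17, the Sprouty genes and the inducible nuclear phosphatases had higher RNA in extravasation-positive than in parental cells, while SPRED1 was lower. The D17 table listed 7 of the 10 members, 6 higher and 1 lower in the extravasation-positive subline. Of all 4412 listed rows, 54.2% were higher and 45.8% lower. With a fold above 2, 3 members were higher (SPRY1, SPRY4 and DUSP1) and 0 lower, and 18.3% of all rows were higher by this fold. The count of higher members was 2 after centring on the median of all listed rows, where DUSP1 had a log2 ratio of 0.89, and 2 with a pseudocount of 1 FPKM, where SPRY4 had one of 0.84. The median log2 ratio was 0.70 over the 7 listed members and 0.39 over all listed rows.

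SPRY1, an inhibitor of receptor tyrosine kinase signalling, showed the largest ratio among the members in D17, at 11.4 FPKM in parental and 39.0 FPKM in extravasation-positive cells, a log2 ratio of 1.78. It ranked 290 of the 2385 rows with a ratio above 0. SPRY4, which acts on the same step, was at 0.819 FPKM in parental and 2.26 FPKM in extravasation-positive cells, a log2 ratio of 1.46. SPRY2 was the most abundant member in both D17 groups and had the smallest positive ratio, with 48.8 FPKM in parental and 68.9 FPKM in extravasation-positive cells, a log2 ratio of 0.50. All 3 listed Sprouty genes were thus higher in the subline, with SPRY2 under a fold of 2 and the other two past it.

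DUSP1, a nuclear phosphatase induced by growth factors and stress, was at 3.89 FPKM in parental and 9.42 FPKM in extravasation-positive D17 cells, 2.42-fold higher. DUSP4, a nuclear phosphatase of ERK and JNK, was at 1.12 and 1.81 FPKM, a log2 ratio of 0.70. DUSP5, a nuclear phosphatase selective for ERK, was at 1.12 and 1.70 FPKM, a log2 ratio of 0.60. DUSP4 and DUSP5 were thus close to 1 FPKM in both D17 groups, and both folds were under 2.

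SPRED1, a membrane-bound inhibitor of RAS to RAF signalling, went the other way in D17, at 18.1 FPKM in parental and 13.1 FPKM in extravasation-positive cells, a log2 ratio of -0.46. SPRED2, DUSP6 and DUSP10 had no row in the D17 table. In the order of FPKM in parental D17 cells, SPRY2 came first, then SPRED1, SPRY1, DUSP1, DUSP5, DUSP4 and SPRY4. In extravasation-positive cells SPRY1 stood above SPRED1 and SPRY4 above DUSP4 and DUSP5. Whether neighbours in these orders differ beyond the spread between libraries is unknown.

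**Figure D1:**
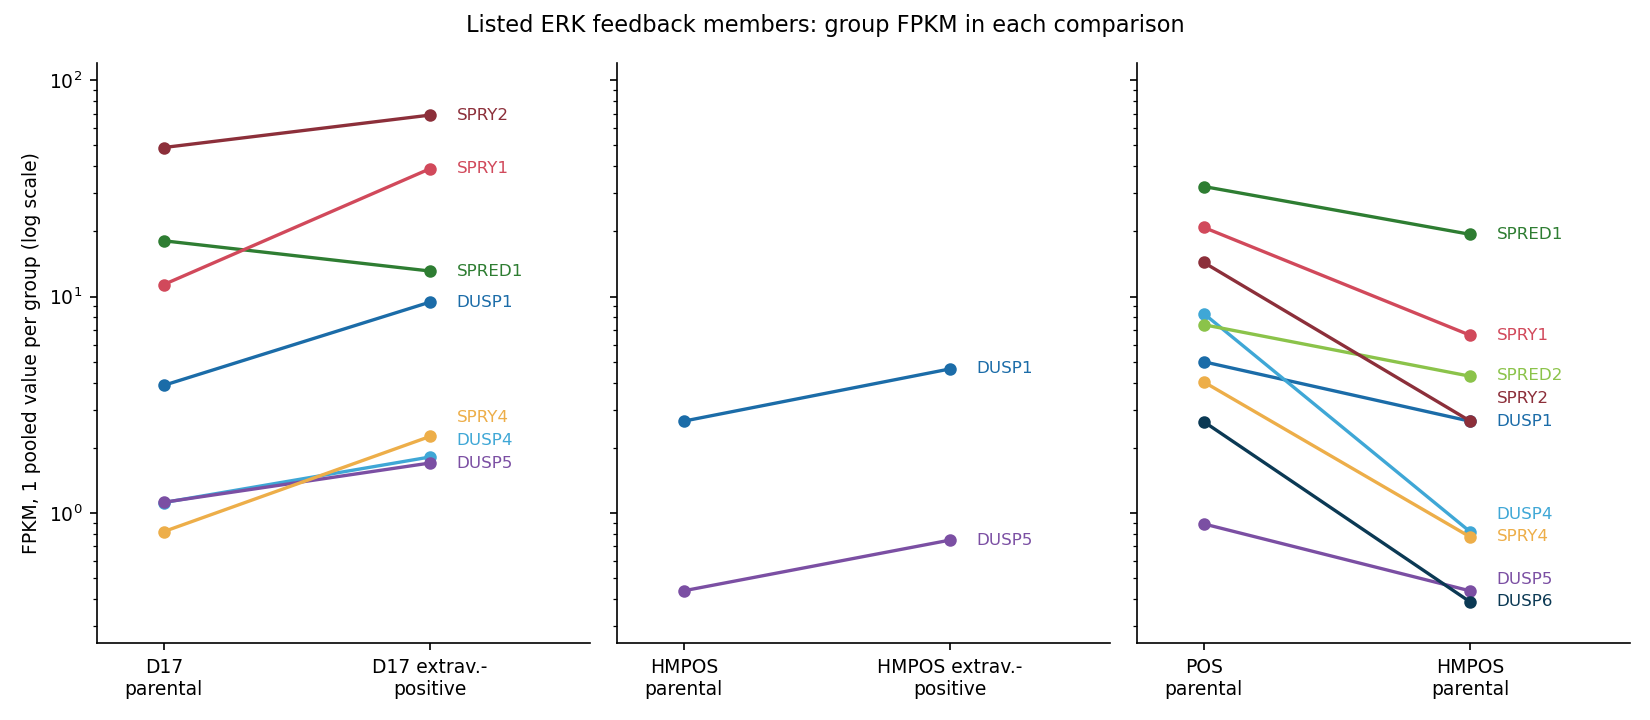
FPKM of each listed member on a log scale, with 1 pooled value per group, in D17 (left), HMPOS (middle) and POS against HMPOS parental cells (right); a line joins the group values of a gene in a table. In D17 all lines rise to the extravasation-positive group except SPRED1 (18.1 to 13.1 FPKM), in HMPOS the lines of DUSP1 and DUSP5 rise, and from POS to HMPOS all 9 lines fall.

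Of the further family genes, DUSP2 and DUSP18 were listed in D17. DUSP2, another inducible nuclear phosphatase, had the highest ratio of the family, with 0.354 FPKM in parental and 1.95 FPKM in extravasation-positive cells, a log2 ratio of 2.46. It ranked 123 of 2385 rows with a ratio above 0, at low FPKM in both groups. All 4 inducible nuclear phosphatase genes, DUSP1, DUSP2, DUSP4 and DUSP5, were therefore listed and higher, with a median log2 ratio of 0.99. Of all listed rows in D17, 54.2% were higher. DUSP18, an atypical phosphatase without the docking domain of the ERK phosphatases, was at 12.0 and 18.3 FPKM. The cytoplasmic ERK phosphatases DUSP6, DUSP7 and DUSP9 and the JNK and p38 phosphatases DUSP8, DUSP10 and DUSP16 had no row in this table.

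In HMPOS, DUSP1 and DUSP5 were the only members listed, and both were higher in the extravasation-positive subline. DUSP1 was at 2.66 FPKM in parental and 4.63 FPKM in extravasation-positive cells, a log2 ratio of 0.80. DUSP5 was at 0.437 and 0.749 FPKM, a log2 ratio of 0.78, and lay below 1 FPKM in both groups. These are 1.74-fold and 1.72-fold differences, so 0 members passed a fold above 2. Of the 1189 listed rows 67.0% were higher at any fold and 20.5% by a fold above 2. The median log2 ratio of all listed rows was 0.58, so that relative to it DUSP1 stood at 0.22 and DUSP5 at 0.19.

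DUSP1 and DUSP5 were the members with rows in all 3 tables. In D17 the log2 ratio of DUSP1 was 1.28 and that of DUSP5 0.60, against 0.80 and 0.78 in HMPOS. The difference between the lines was not tested, since it would need values per library. None of the Sprouty and SPRED genes had a row in the HMPOS table, and whether their change differs between the lines is not shown by that absence.

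Between the parental lines, all 9 listed members were lower in HMPOS than in POS. Of the 5746 listed rows 52.3% were lower and 47.7% higher in HMPOS. With a fold above 2, 6 members were lower (DUSP4, DUSP5, DUSP6, SPRY1, SPRY2 and SPRY4), where 19.1% of all rows were lower and 8.49% higher by this fold. The median log2 ratio was -1.65 over the 9 listed members and -0.31 over all listed rows. This comparison listed the most members and had the largest median difference, although DUSP1 and SPRY1 differed more in D17, with log2 ratios of 1.28 and 1.78 there against -0.91 and -1.65 here.

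DUSP4 showed the largest difference, at 8.33 FPKM in POS and 0.819 FPKM in HMPOS, 10.2-fold lower in HMPOS. It ranked 137 of the 2990 rows with a ratio below 0. DUSP6, the cytoplasmic phosphatase selective for ERK, was at 2.64 FPKM in POS and 0.388 FPKM in HMPOS, 6.80-fold lower, and this was the only table that listed it. At such low FPKM the size depends on the pseudocount: a pseudocount of 1 FPKM took DUSP6 from a log2 ratio of -2.77 to -1.39, and DUSP4 from -3.35 to -2.36. DUSP5 was at 0.889 FPKM in POS and 0.436 FPKM in HMPOS, 2.04-fold lower and just past the threshold. DUSP5 lost this call in each setting that changed the ratio or filtered on level, with a log2 ratio of -0.72 after centring, -0.40 with a pseudocount of 1 and -0.88 with one of 0.1, and it was left out at a minimum of 1 FPKM, so that the count of lower members was then 5. DUSP1 lay just short of the threshold, at 4.99 FPKM in POS and 2.65 FPKM in HMPOS, 1.88-fold lower.

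The 3 listed Sprouty genes all passed a fold of 2. SPRY2 was at 14.4 FPKM in POS and 2.66 FPKM in HMPOS, a log2 ratio of -2.43, and ranked 251 of 2990. SPRY4 was at 4.03 FPKM in POS and 0.775 FPKM in HMPOS, a log2 ratio of -2.38. SPRY1 was at 20.9 FPKM in POS and 6.63 FPKM in HMPOS, a log2 ratio of -1.65. Sprouty RNA was thus lower in HMPOS by 3.15-fold to 5.40-fold without a pseudocount. With a pseudocount of 1 FPKM the log2 ratios were -2.07 for SPRY2, -1.50 for SPRY4 and -1.52 for SPRY1.

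The SPRED genes differed less. SPRED1 was at 32.2 FPKM in POS and 19.4 FPKM in HMPOS, 1.66-fold lower, and SPRED2 at 7.41 and 4.28 FPKM, 1.73-fold lower. With its smaller difference SPRED1 was the most abundant member in both parental lines of this table, while SPRY1 was second in both. DUSP4 stood above SPRED2, DUSP1 and SPRY4 in POS and below SPRED2 and DUSP1 in HMPOS.

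**Figure D2:**
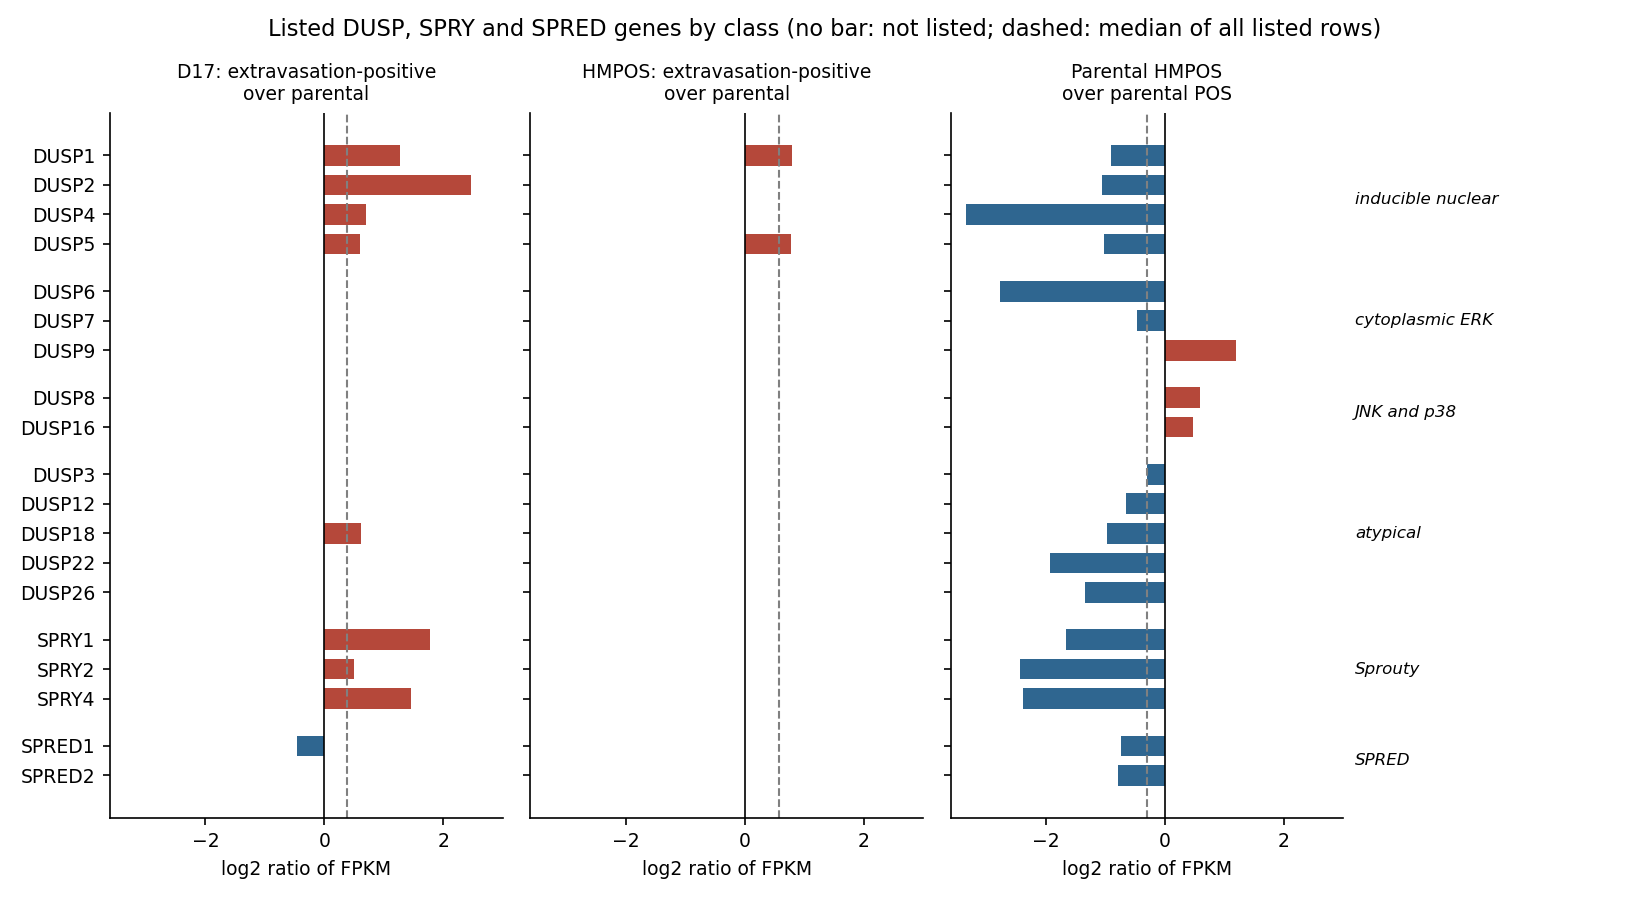
Log2 ratios of all listed DUSP, SPRY and SPRED genes, grouped by class, in the 3 comparisons; red bars are higher and blue bars lower in the first-named group, a missing bar means no row, and the dashed line is the median of all listed rows. In the right panel only DUSP9, DUSP8 and DUSP16 are above 0, and DUSP4 (-3.35) and DUSP6 (-2.77) are the longest bars.

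All 10 further family genes were listed between the parental lines, so that 16 of the 19 listed DUSP, SPRY and SPRED genes were lower in HMPOS and 3 higher. By a fold above 2, 9 were lower and 1 was higher. Over all listed rows, 52.3% were lower and 47.7% higher, and by a fold above 2 19.1% were lower and 8.49% higher. The 3 that were higher were DUSP9, a cytoplasmic ERK phosphatase on the X chromosome, and DUSP8 and DUSP16, which act on JNK and p38. DUSP9 was at 1.53 FPKM in POS and 3.51 FPKM in HMPOS, 2.29-fold higher. DUSP8 was at 0.608 and 0.921 FPKM, and DUSP16 at 3.05 and 4.23 FPKM.

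By class, the 4 inducible nuclear phosphatases were all lower in HMPOS, with a median log2 ratio of -1.04, and DUSP2 among them was at 0.605 FPKM in POS and 0.291 FPKM in HMPOS. Of the cytoplasmic ERK phosphatases, DUSP7 was at 18.1 FPKM in POS and 13.1 FPKM in HMPOS, a log2 ratio of -0.47, which with DUSP6 lower and DUSP9 higher left the class without a common direction. The 5 listed atypical phosphatases were lower in HMPOS too, in a comparison where 52.3% of all listed rows were lower. DUSP22 was 3.83-fold lower, at 3.00 FPKM in POS and 0.784 FPKM in HMPOS, and DUSP26 was 2.54-fold lower, at 7.90 and 3.11 FPKM. DUSP12, DUSP18 and DUSP3 had log2 ratios of -0.64, -0.97 and -0.31, the last equal to the median of all listed rows to 2 decimals.

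**Figure D3:**
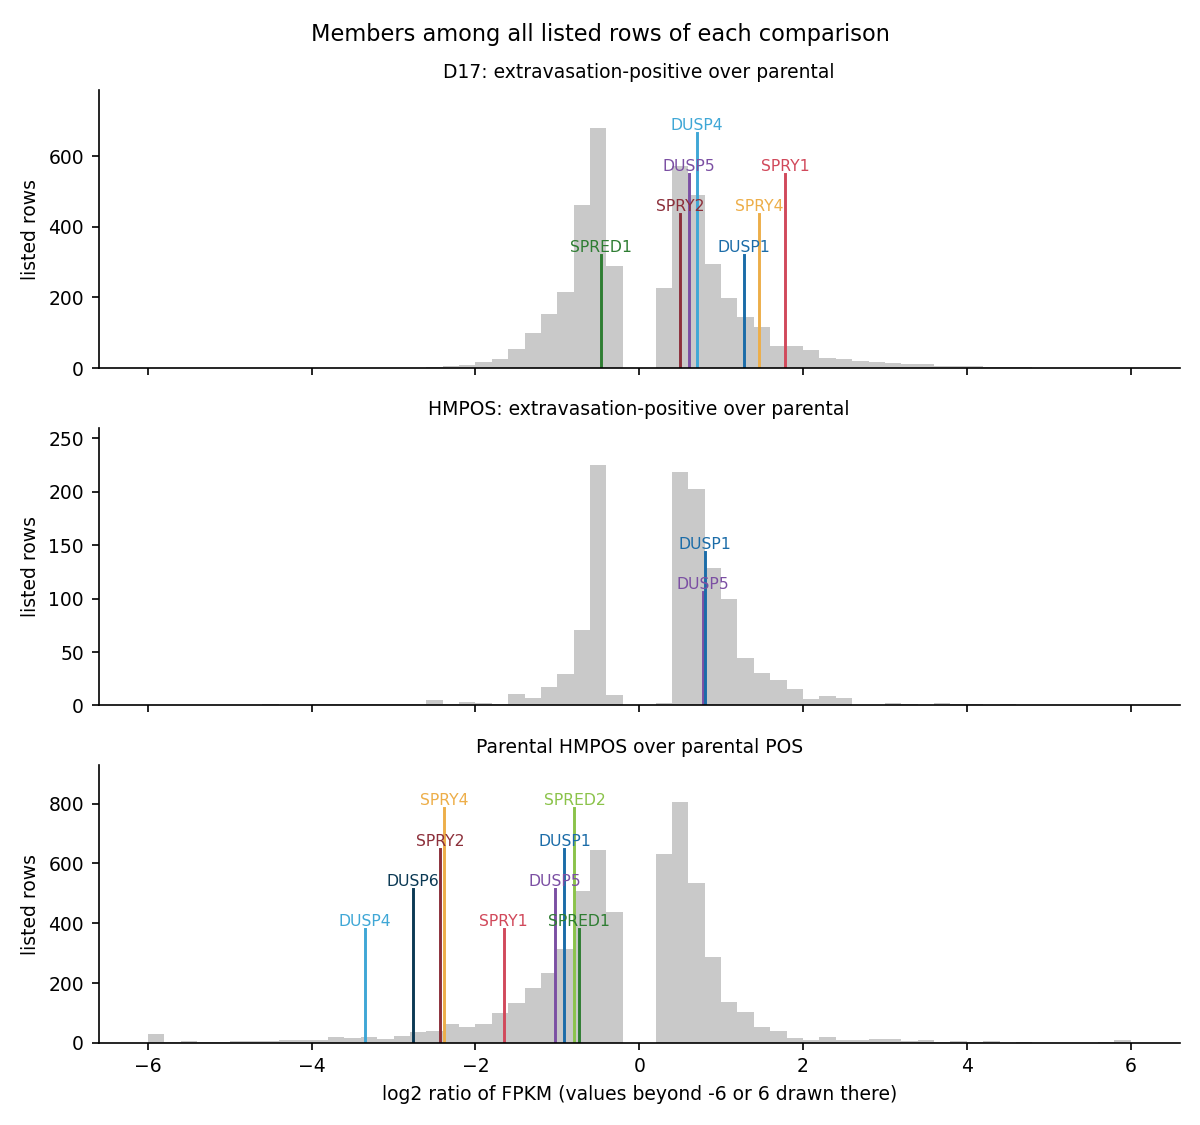
Histograms of the log2 ratios of all listed rows (grey, bins of 0.2) with each member marked by a vertical line whose height has no meaning. The gap around 0 reflects that only rows marked significant by the authors are listed; in the lower panel DUSP4, DUSP6, SPRY2 and SPRY4 lie in the left tail, at -2.38 or below, while DUSP1 and DUSP5 in the middle panel lie in the bulk of the higher rows.

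The listed rows were not balanced around 0, and centring each table on its median changed the share of higher rows among those past a fold of 2 from 68.3% to 31.9% in D17, from 81.1% to 16.6% in HMPOS and from 30.7% to 57.0% between the parental lines. After centring, each of the 9 listed members kept its direction in every table that listed it. The smallest centred log2 ratio was that of SPRY2 in D17, at 0.11. DUSP4 and DUSP6 stood at -3.04 and -2.46 between the parental lines after centring, and SPRY1 at 1.39 in D17.

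The D17 table and the table of the parental lines share no library, and 7 members had rows in both. Of these, 6 were higher in extravasation-positive D17 cells and lower in HMPOS than in POS, and SPRED1 was lower in both. Over all 2623 genes listed in both tables, 42.5% had the first pattern. SPRY2 and SPRY4 had similar ratios between the parental lines, -2.43 and -2.38, but differed in D17, at 0.50 and 1.46. DUSP4 had the largest difference between the parental lines and the median one in D17, with log2 ratios of -3.35 and 0.70. Levels cannot be compared strictly across tables, which were normalised separately, but SPRY2 was given as 48.8 FPKM in parental D17 cells, 14.4 FPKM in POS and 2.66 FPKM in parental HMPOS cells.

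The HMPOS table and the table of the parental lines share the HMPOS parental libraries, so their ratios are not independent and the group values are set side by side instead. Over 908 genes listed in both, the HMPOS parental value differed between the tables by a median absolute log2 ratio of 0.00135. DUSP1 was at 4.99 FPKM in POS, 2.65 or 2.66 FPKM in parental HMPOS by table, and 4.63 FPKM in extravasation-positive HMPOS cells. The parental HMPOS value was 53.1% and the extravasation-positive value 92.7% of that in POS. DUSP5 was at 49.0% of POS in parental and 84.2% in extravasation-positive HMPOS cells. Both values thus lay below POS in each HMPOS group, with unknown error.

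To place the members in their pathway, fixed lists of other ERK pathway genes were read in the same tables. Of 12 genes often driven by ERK (the output list), the D17 table listed 8, with 3 higher and 5 lower in extravasation-positive cells and a median log2 ratio of -0.53. Some genes of these lists are named here after their values were seen. FOSL1, an AP-1 transcription factor subunit, was at 25.4 FPKM in parental and 7.82 FPKM in extravasation-positive D17 cells, and EPHA4, an ephrin receptor, at 0.721 and 0.194 FPKM. EGR1, an early growth response factor, was at 6.73 and 18.2 FPKM, and LIF, a cytokine, at 6.78 and 16.6 FPKM. In D17 the output genes therefore had no common direction, while 6 of the 7 listed feedback members were higher. Over all listed rows in D17, 54.2% were higher and 45.8% lower. Whether the feedback members and the output genes differ was not tested.

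In HMPOS, 3 of the 12 output genes were listed and all 3 were higher in the extravasation-positive subline, in a table where 67.0% of all rows were higher. PHLDA1, a pleckstrin homology-like protein, was at 5.30 FPKM in parental and 15.2 FPKM in extravasation-positive cells. FOSL1 was at 2.33 and 4.92 FPKM, and the ETS factor gene ETV5 at 2.59 and 4.08 FPKM. The median log2 ratio was 1.08.

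Between the parental lines, 8 output genes were listed, 7 lower in HMPOS than in POS and 1 higher, with a median log2 ratio of -1.43, and 6 were lower by a fold above 2. Over all listed rows of this comparison, 52.3% were lower, and 19.1% were lower by a fold above 2. ETV1, an ETS transcription factor, was at 8.75 FPKM in POS and 0.991 FPKM in HMPOS, 8.82-fold lower. EGR1 was at 27.0 and 5.29 FPKM, 5.10-fold lower. MYC was the one that was higher, at 38.3 FPKM in POS and 53.7 FPKM in HMPOS. In this comparison the output genes and the feedback members shared their direction, apart from MYC. That held after centring, with 7 lower and 1 higher.

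**Figure D4:**
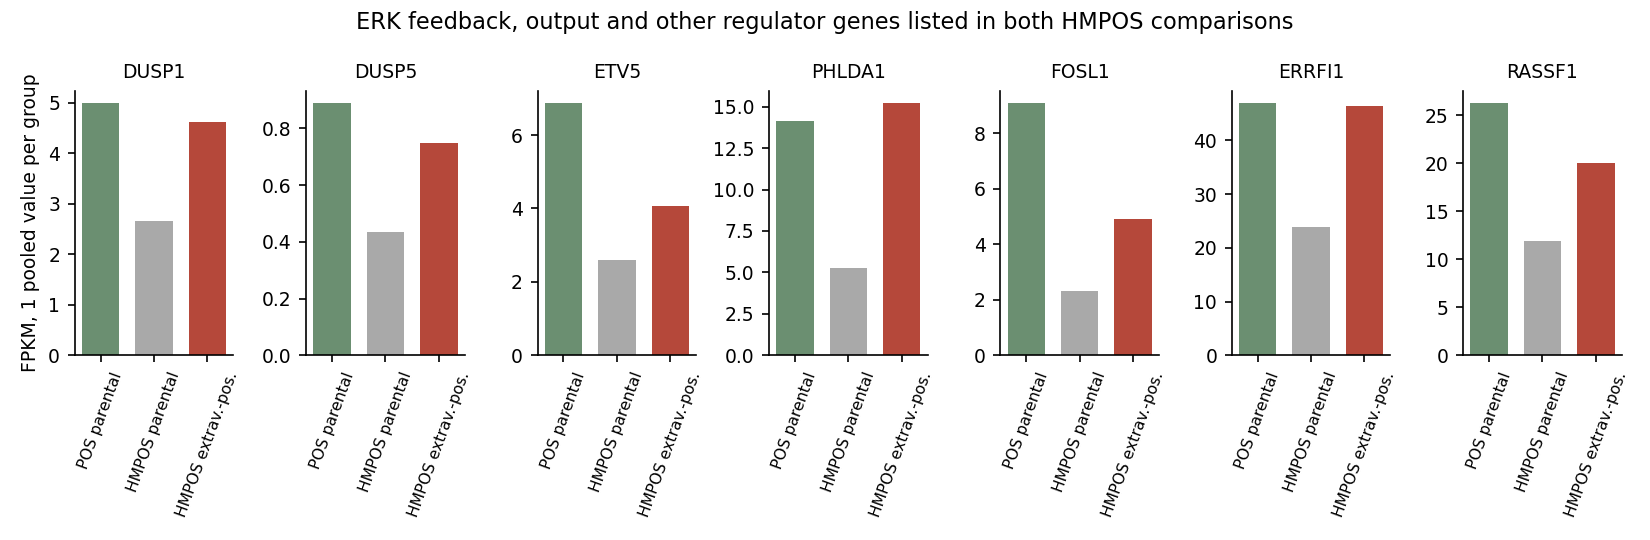
FPKM of the 7 genes of the families and pathway lists that are listed in both HMPOS comparisons, in POS parental, HMPOS parental (as given in the table against POS) and HMPOS extravasation-positive cells, with 1 pooled value per bar, no error bars and a separate linear axis from 0 for each gene. Parental HMPOS, which enters both comparisons and so makes their ratios dependent, is the lowest bar for each gene, and nothing particular to these genes is read from that. PHLDA1 alone is higher in extravasation-positive HMPOS (15.2 FPKM) than in POS (14.1 FPKM).

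A list of 21 core genes of the cascade held RAS, RAF, MEK and ERK genes with adaptors and scaffolds, but not every RAS gene. Of all listed rows in D17, 54.2% were higher. The D17 table listed 7 of the core genes, with 5 higher and 2 lower, or 4 and 3 after centring. GAB1, a docking protein below receptors, was at 6.75 FPKM in parental and 14.6 FPKM in extravasation-positive D17 cells, the only one past a fold of 2. FRS2, the adaptor of fibroblast growth factor receptors, was at 40.1 and 71.3 FPKM, and the scaffold gene KSR1 at 1.30 and 2.41 FPKM. The HMPOS table listed 0 of the 21. Between the parental lines 8 were listed, 2 higher and 6 lower in HMPOS, or 4 and 4 after centring. Over all listed rows of this comparison, 52.3% were lower. GAB1 was at 9.35 FPKM in POS and 4.68 FPKM in HMPOS, FRS2 at 9.22 and 5.35 FPKM, and KSR1 at 0.297 and 0.797 FPKM.

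Of 13 other negative regulators of the pathway, the D17 table listed 8, with 4 higher and 4 lower in extravasation-positive cells. ERRFI1, a feedback inhibitor of the EGF receptor, was at 31.8 FPKM in parental and 24.1 FPKM in extravasation-positive D17 cells. In HMPOS it was at 23.8 FPKM in parental and 46.4 FPKM in extravasation-positive cells. RASSF1, a RAS association domain protein, was at 20.4 and 12.6 FPKM in D17 and at 11.9 and 20.0 FPKM in HMPOS. The HMPOS table listed 3 of the 13, all higher, or 2 higher and 1 lower after centring. The table of the parental lines listed 8, with 5 lower and 3 higher in HMPOS. Over all listed rows, 54.2% were higher in D17, 67.0% higher in HMPOS and 52.3% lower between the parental lines.

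The JNK, p38 and ERK5 kinases and their activators, among them the other substrates of the dual-specificity phosphatases, made a list of 13 genes. In D17, 4 were listed, 3 higher and 1 lower. MAP2K6, the kinase that activates p38, was at 3.91 FPKM in parental and 21.1 FPKM in extravasation-positive cells, and the JNK gene MAPK10 at 1.26 and 7.42 FPKM. The HMPOS table listed 0, and the table of the parental lines 5, with 2 higher and 3 lower in HMPOS. Over all listed rows, 54.2% were higher in D17 and 52.3% lower between the parental lines.

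**Figure D5:**
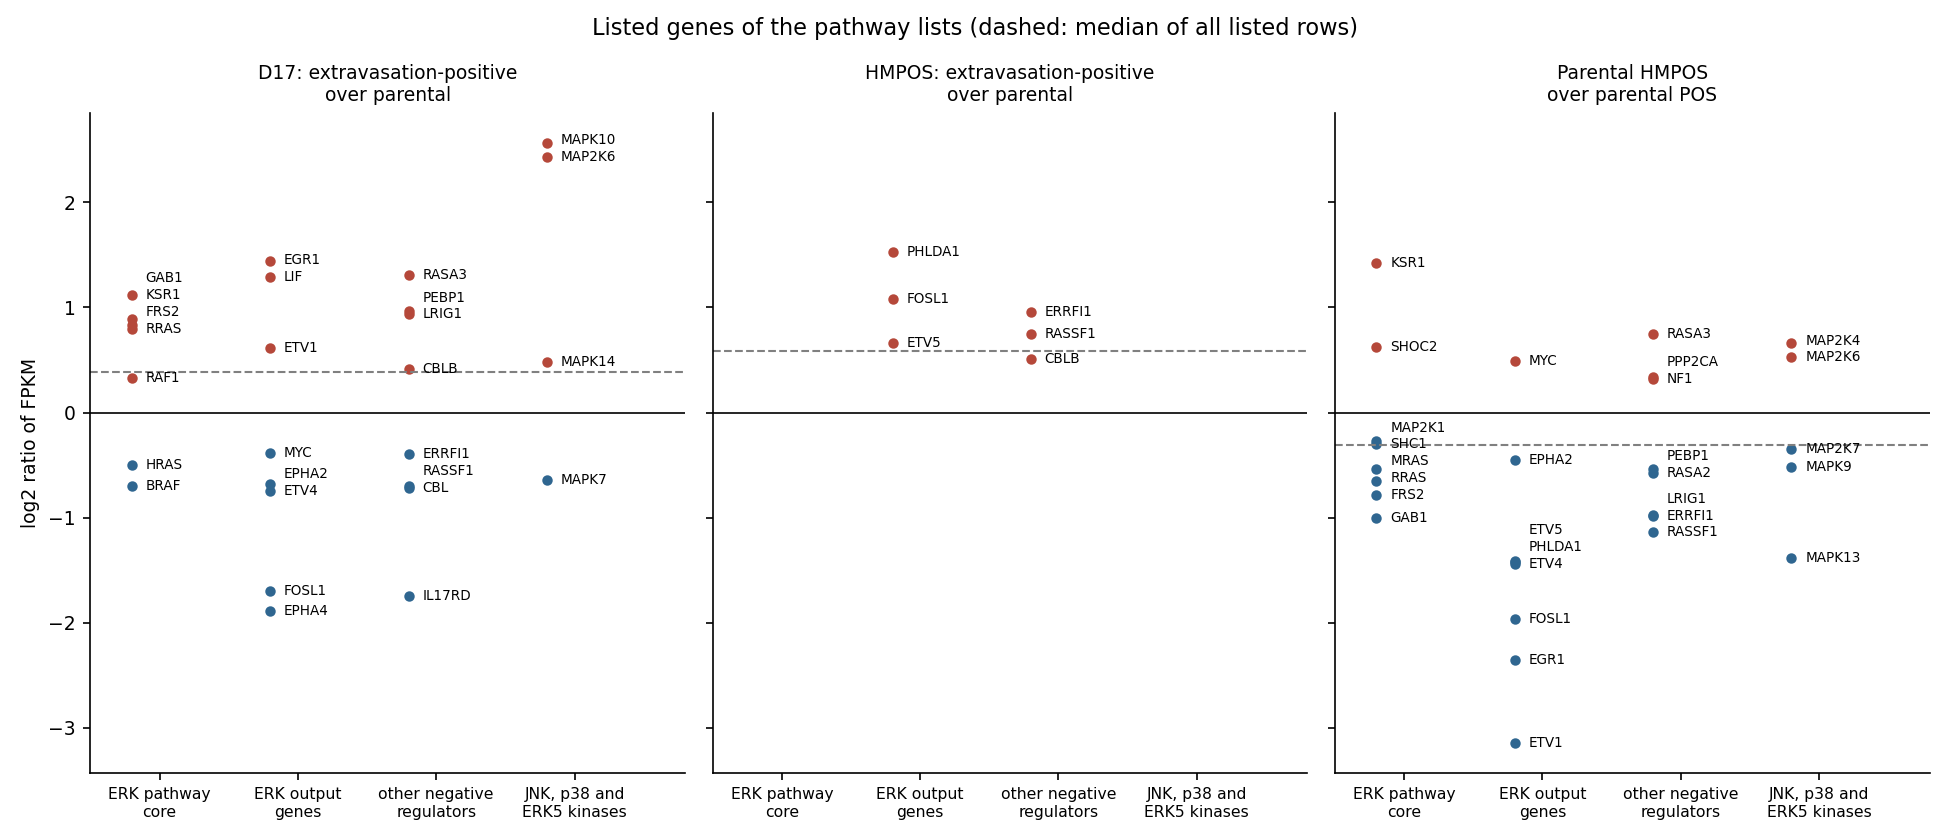
Log2 ratios of the listed genes of the 4 pathway lists in the 3 comparisons, with 1 point per gene, red above and blue below 0, and the median of all listed rows dashed. The output genes spread from -1.89 (EPHA4) to 1.44 (EGR1) in D17, are all above 0 in HMPOS and are below 0 except MYC between the parental lines.

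Marker genes of the labelled cell type differed in the same comparisons. Of 10 osteoblast lineage and mesenchymal genes, 4 were listed in D17, each higher in extravasation-positive cells, 5 in HMPOS with 4 higher, and 6 between the parental lines with 5 lower in HMPOS. Over all listed rows, 54.2% were higher in D17, 67.0% higher in HMPOS and 52.3% lower between the parental lines. IBSP, which encodes bone sialoprotein, was the one that was lower in extravasation-positive HMPOS cells, and is named after its value was seen, at 2.05 FPKM in parental and 0.427 FPKM in extravasation-positive cells. SPARC, which encodes a bone matrix protein, was at 186.9 FPKM in parental and 433.0 FPKM in extravasation-positive D17 cells, and at 4439 FPKM in POS and 1775 FPKM in HMPOS. The bone matrix gene BGLAP, also named after its value was seen, was at 676.3 FPKM in POS and 27.3 FPKM in HMPOS. The osteoblast lineage gene SP7 was the 1 that was higher in HMPOS than in POS. It was at 41.7 FPKM in POS and 54.5 FPKM in HMPOS. Of 5 leukocyte markers 0 were listed in any table, and of 5 endothelial markers only KDR, at 1.73 FPKM in POS and 0.146 FPKM in HMPOS. Of 5 epithelial markers, CDH1 was at 0.0783 and 1.47 FPKM and EPCAM at 0.431 and 1.72 FPKM in parental and extravasation-positive D17 cells, and CDH1 alone was listed in HMPOS and between the parental lines. The part of these genes in the results for the feedback members was not tested, and marker levels that had no row could not be summed.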

How the data were processed

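RNA-seq tables of 15 libraries in 5 groups were used. Per the labels, reads were trimmed with Trimmomatic 0.38 and processed with TopHat2, Cufflinks and Cuffdiff on CanFam3.1, whereas the article names STAR, voom and limma; the deposited columns are those of Cuffdiff. The authors deposited 1 FPKM value per group and table, beside the results of their own comparison (fold change, statistic, p-value, q-value), which were not used; every row is marked significant. Depth is unknown, and 0 columns of single samples were left unused. The group named meta was read as extravasation-positive and norm as parental, because the POS column is named norm and POS has no subline. The reading is in doubt, since the article describes the directions as the reverse reading would give them. A ratio taken in the article as norm over meta would give the same mismatch. The reverse reading would exchange the directions in D17 and HMPOS and make the HMPOS group compared with POS the extravasation-positive subline. It could not hold for POS, which has parental samples alone.

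Log2 ratios were recomputed without a pseudocount, and counts made at a fold above 2. Rows with a value of 0 in a group gave no finite ratio. They were counted by direction as past any fold, and were left out of ranks and medians. First positions were shifted by 1 base to count from 1, because coding models of a single exon then span multiples of 3. Sequence features were not analysed here. The ratio code was tested on simulated data. Of 19 listed family symbols, 17 were found in the RefSeq gene table. The members and lists were chosen with earlier results of these data known. The genes named were the members, the other family symbols and, of each list, up to 3 genes in the most tables with the largest ratios or with opposite directions in D17 and HMPOS, plus some named after their values were seen. The alternatives were a fold of 1.5, any fold, at least 1 FPKM, pseudocounts of 1 and 0.1 and centring. Python 3.11.15, numpy 2.4.6, pandas 2.3.3 and matplotlib 3.10.9 were used.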

Additional observations from a re-analysis of the deposited data

Results flagged for a closer look

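DUSP1 and DUSP5 were the only family genes with rows in both the D17 and the HMPOS table, and neither had opposite directions there. Opposite directions were seen for 3 genes of the pathway lists. Rows in both tables were held by 9 genes of the families, pathway lists and cell type markers. The rest of these, CBLB and the markers COL1A1, SPARC and CDH1, were higher in both sublines. FOSL1 had a log2 ratio of extravasation-positive over parental cells of -1.70 in D17 and 1.08 in HMPOS. ERRFI1 had a log2 ratio of -0.40 in D17 and 0.96 in HMPOS. RASSF1 had a log2 ratio of -0.70 in D17 and 0.74 in HMPOS. The difference between the lines was not tested for any of them, because each ratio rests on 1 pooled value per group. Of all 614 genes with rows in both tables, 12.9% had opposite directions.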

How the results depend on the processing

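In D17, the count of members higher in extravasation-positive cells was 3 at a fold above 2, 5 at a fold above 1.5 and 6 at any fold, and the count of lower members went from 0 to 1 at any fold. In HMPOS the count of higher members was 0 at a fold above 2 and 2 at a fold above 1.5 or at any fold. The other counts, and these counts with at least 1 FPKM in the higher group, a pseudocount of 1 or 0.1 or centring on the median, stayed within 1.5 times of their value, although single members lost their call: DUSP1 in D17 on centring, SPRY4 in D17 with a pseudocount of 1, and DUSP5 between the parental lines under all of these settings. On centring, all 18 log2 ratios of members kept their direction. A pseudocount added to both group values cannot reverse a direction, so the settings with a pseudocount say nothing on this. No paired analysis was possible because each group is given as 1 pooled value without its libraries, and fits that leave out a replicate or use a replicate block were not run for the same reason. The unknown depth limits most the values under 1 FPKM, among them DUSP5 in all HMPOS and POS groups. Others are DUSP4, DUSP6 and SPRY4 in parental HMPOS, and SPRY4 in parental D17.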

Other observations

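Of 494 symbols with a ratio in all 3 tables, those nearest to DUSP1 by Euclidean distance over the 3 log2 ratios were SLC4A3 (0.174), PPP1R3B (0.179) and SYT12 (0.182). Those nearest to DUSP5 were THRB (0.111), SRPX2 (0.222) and SPATA24 (0.244). DUSP1 and DUSP5 lay 0.685 apart. Each was outside the 3 symbols picked as nearest to the other, so a larger distance follows from that choice. The distance covers 3 ratios from pooled values, of which 2 share the HMPOS parental libraries.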
